A study of Mus musculus with 8 samples.

Results

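The collagen genes were followed in 8 mouse melanomas read on Illumina bead arrays, 1 tumour per array. A gene was taken as a member when the platform gives it a collagen chain symbol and at least 1 of its probes had a detection p under 0.05 on at least 1 array. Of 37 collagen genes with a probe, 29 met this, against 10461 genes of all kinds that met the same detection rule. Each gene is given by its probe with the highest mean, as log2 intensity after background correction and quantile normalization. Levels of different genes are read by different probes and cannot be ranked against each other.

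The tumours arose in FVB/n mice of the genotype DCT-TVA;Ink4a/Arf lox/lox, so that only cells using the Dct promoter carry TVA, the receptor for avian leukosis virus. Newborns received virus-producing cells under the skin, which delivered Tet-off and TRE-NRASQ61R-IRES-Cre. The Q61R form of NRAS is an oncogenic small GTPase, and Cre deletes the floxed Ink4a/Arf locus. Doxycycline in the food shuts off the Tet-off system, and with it NRAS and Cre. It was given to a cohort once tumours reached 1000 mm3, and the 7 resistant tumours (NRASQ61R off) had stopped responding to the loss of NRAS. The remaining tumour is the control, with NRASQ61R on. Its description names only NRAS-IRES-Cre, without Tet-off, so the labels do not settle which vector made it. The labels give no age, and do not say that each tumour is from a separate mouse, so p-values measure the spread between these samples alone.

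Whole tumours were profiled, so host cells of the skin contribute, and fewer cells of a type cannot be told apart from less RNA per cell. Between 11821 and 12851 probes were detected per array. The number of arrays sets the precision. Of 9 melanocyte markers with a probe, 7 were detected on no array (Mitf, Tyr, Tyrp1, Dct, Mlana, Oca2 and Pax3). Slc45a2 read at most 5.85 and Pmel at most 5.26, both close to the lowest detected signal of the arrays, 5.12 to 5.36. Most defining markers of the labelled cell type were thus not above background. Across all genes, resistant tumour 6 stood furthest apart, with 553 genes that differed from the other 7 tumours.

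Collagens are secreted or membrane-bound proteins whose alpha chains wind into a triple helix built on a glycine repeat. Fibrillar collagens form the tensile fibres of dermis, tendon and bone, and type IV collagen forms the sheet of basement membranes. Type VI makes beaded filaments around cells, FACIT collagens attach to fibrils, and others anchor the epidermis, span the plasma membrane or release signalling fragments. In skin tumours much of the fibrillar collagen is usually made by fibroblasts, and type IV is made by vessels, nerve sheath cells and tumour cells.

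All 11 fibrillar genes on the list drawn up for this work were members, as were 4 of 6 type IV genes and 2 of 3 type VI genes with a probe. FACIT genes gave 4 members of 6 with a probe, transmembrane collagens 3 of 4, and Col7a1, Col15a1, Col18a1, Col26a1 and Col28a1 completed the set. The network collagen genes Col8a2 and Col10a1 were not members, and neither were Col4a3, Col4a4, Col6a6, Col9a3, Col13a1 and Col19a1. Genes such as Col6a3, Col8a1 and Col12a1 were not analysed here. Closest to the limit, Col11a1 entered with a lowest detection p of 0.04261 and Col6a6 stayed out with 0.14662. Of the 29 members, 16 were detected on all 8 arrays, 11 on 2 to 7 arrays and 2 on a single array. The map of levels relative to each gene's mean shows all 29 with their undetected values marked.

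**Figure D1:**
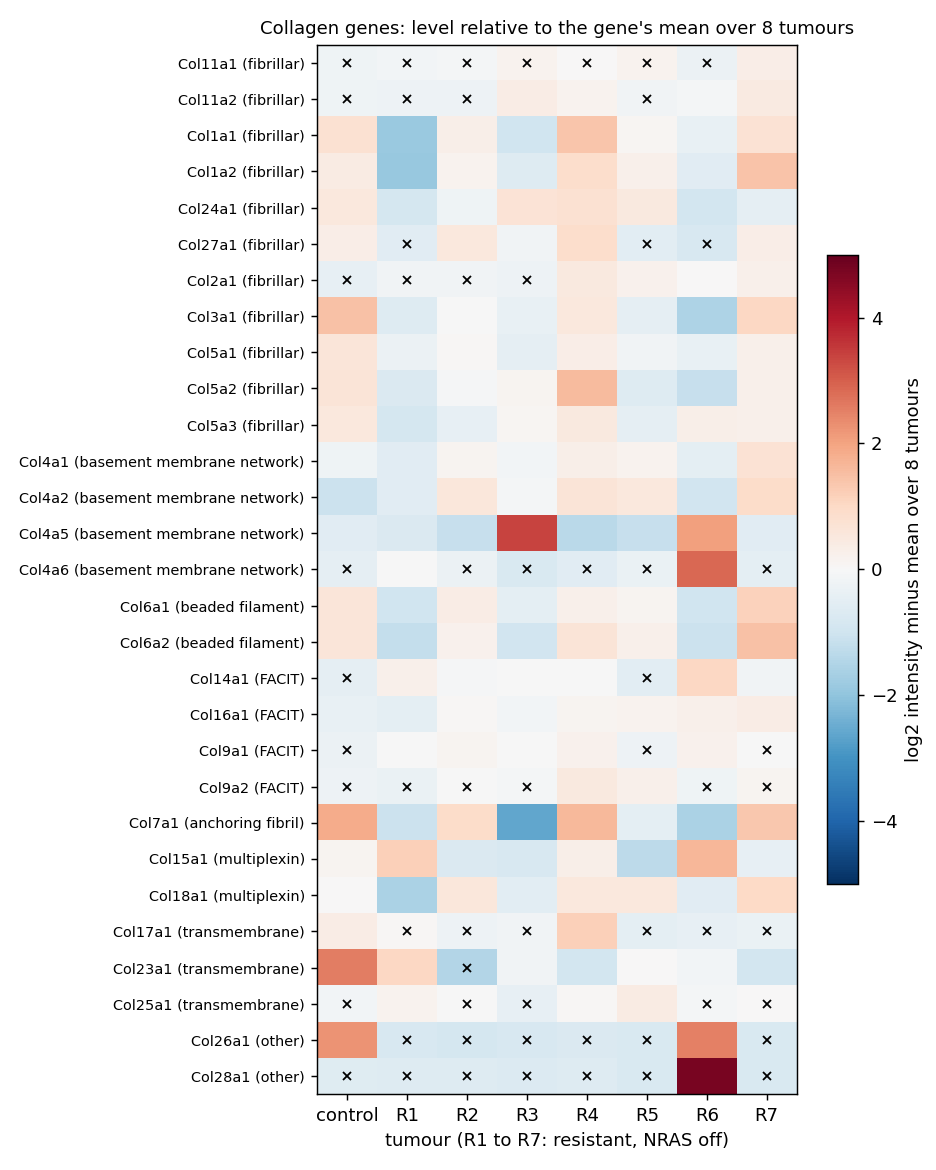
Log2 intensity of 29 collagen genes (rows, with their structural class) in 8 tumours (columns; R1 to R7 are the resistant tumours), minus each gene's mean over the 8 tumours. Crosses mark values that were not detected; the strongest colours are Col28a1, Col4a6 and Col26a1 in R6, Col4a5 in R3, Col7a1 in R3 (low) and Col23a1 and Col26a1 in the control.

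No collagen gene passed the comparison of resistant tumours with the control. Limma called 0 of 29 members, with 1 member at an unadjusted p under 0.05. Over all genes, 0.00956% were called higher and 0.210% lower, and 8.21% had an unadjusted p under 0.05. The median difference over the 29 was -0.14 on the log2 scale, and -0.02 over all 10461 genes. The mean of the resistant tumours was above the control for 13 members and below it for 16. All 7 resistant tumours lay below the control for 5 members (Col3a1, Col5a1, Col5a3, Col7a1 and Col23a1), where 17% of all genes did so. They lay above it for 3 (Col2a1, Col4a2 and Col9a1), where 13.3% of all genes did so. Col2a1 and Col9a1 were undetected in the control and in some resistant tumours, so their place partly compares background values. Both counts are near the shares over all genes. The residual spread comes from the resistant tumours alone, and the single control is taken to have the same spread.

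**Figure D2:**
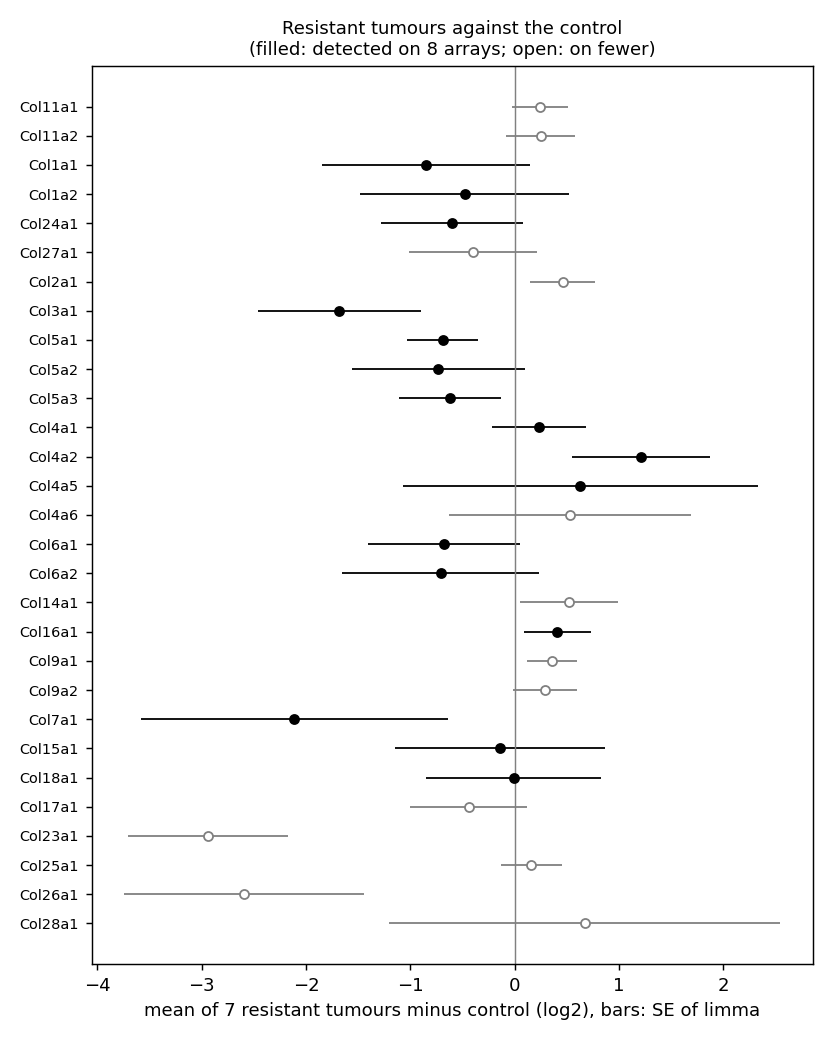
Mean log2 intensity of 7 resistant tumours minus the control (x axis) for 29 collagen genes (y axis), with limma's SE as bars. Filled points were detected on all 8 arrays and open points on fewer; Col23a1 (-2.94), Col26a1 (-2.59) and Col7a1 (-2.11) lie furthest to the left and Col4a2 (1.21) furthest to the right.

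The type I collagen genes, which encode the main fibre-forming chains of dermis and bone, varied widely among the resistant tumours on both sides of the control. Col1a1 read 12.67 in the control, and from 10.07 to 13.33 with a median of 12.01 in the resistant tumours. It was lowest in tumours 1, 3 and 6, and only tumour 4 exceeded the control. The mean difference was -0.85 (SE 1.00, adjusted p = 0.877). Col1a2, the partner chain of the same trimer, read 9.01 in the control and 6.69 to 10.00 in the resistant tumours, with a median of 8.76. Tumours 1, 3 and 6 were again the lowest, and tumours 4 and 7 lay above the control. Its difference was -0.48 (SE 1.00, adjusted p = 0.933). Without tumour 1 the differences were -0.56 for Col1a1 and -0.17 for Col1a2.

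Over the 8 tumours the levels of Col1a1 and Col1a2 moved together, with a Pearson r of 0.928 (exact permutation p = 0.00129, adjusted over 10 pairs of chains 0.00645, two-sided). Spearman's rho was 0.905 (exact adjusted p = 0.0241). Without tumours 1 and 4, the 2 farthest from the Col1a1 median, r was 0.856 (exact adjusted p = 0.0625, n = 6). Without tumour 1 alone it was 0.847 (exact adjusted p = 0.0575, n = 7), so the call rests on that tumour while the coefficient does not. In the ranking of 10460 other genes by their r with Col1a1, Col1a2 was at place 9. RefSeq's table for GRCm38.p6 holds a promoter for 24 of the 29 members, and that of Col1a2 is shown since its level moved with its partner chain. It spans the 250 bases before the start at chr6:4505368-4505617, on the + strand. Capitals mark CCAAT and GGGCGG, searched with TATAAA on both strands.
Col1a2: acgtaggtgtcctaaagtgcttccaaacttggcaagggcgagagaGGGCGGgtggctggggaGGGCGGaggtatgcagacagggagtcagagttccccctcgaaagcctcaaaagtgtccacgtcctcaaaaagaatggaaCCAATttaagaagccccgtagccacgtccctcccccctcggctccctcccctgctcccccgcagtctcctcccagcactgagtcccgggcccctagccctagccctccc
CCAAT lies at -109 from the start and GGGCGG at -205 and -188. Of all 32851 promoter windows, 33.8% hold CCAAT, 32.7% GGGCGG and 12.4% TATAAA. These are matches of letters, not known sites.

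Col3a1 encodes type III collagen, which mixes with type I in young and healing skin. On the probe used it read 10.69 in the control and 7.68 to 10.25 in the resistant tumours, with a median of 8.83. All 7 lay below the control and tumour 6 was the lowest. The difference was -1.68 (SE 0.78, adjusted p = 0.619). Its other probe read 5.47 in the control and differed by 0.93 in the opposite direction, with 6 resistant tumours above the control and tumour 6 not detected. The direction of Col3a1 is therefore not settled. Col1a1 and Col3a1 had a Pearson r of 0.655 (exact adjusted p = 0.109) and a Spearman rho of 0.81 (exact adjusted p = 0.0436).

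The type V genes, whose chains nucleate type I fibrils and limit their width, had means below the control, with no gene called. Col5a1 read 13.23 in the control and 12.18 to 12.96 in the resistant tumours, with a median of 12.45. No resistant tumour reached the control, and the difference was -0.69 (SE 0.34, adjusted p = 0.631). Col5a2 and Col5a3 differed by -0.73 (SE 0.83) and -0.62 (SE 0.49). Col5a2 was highest in tumour 4 at 7.88 and lowest in tumour 6 at 5.15, with 6.95 in the control. Col5a1 and Col5a2 had a Pearson r of 0.722 (exact adjusted p = 0.088) and Col1a1 and Col5a2 one of 0.699 (exact adjusted p = 0.088).

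The cartilage-type fibrillar genes were near the detection limit. Col2a1, the main collagen of cartilage, was detected on 4 arrays and read at most 5.69. Col11a1 was detected on 1 array and Col11a2 on 4, at most 5.41 and 5.74. Of 10 cartilage markers with a probe, 8 were detected on no array, among them Acan and Comp. The minor fibrillar genes Col24a1 and Col27a1 read 5.35 to 7.03 and 4.75 to 6.46 in the resistant tumours, against 6.79 and 5.92 in the control.

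**Figure D3:**
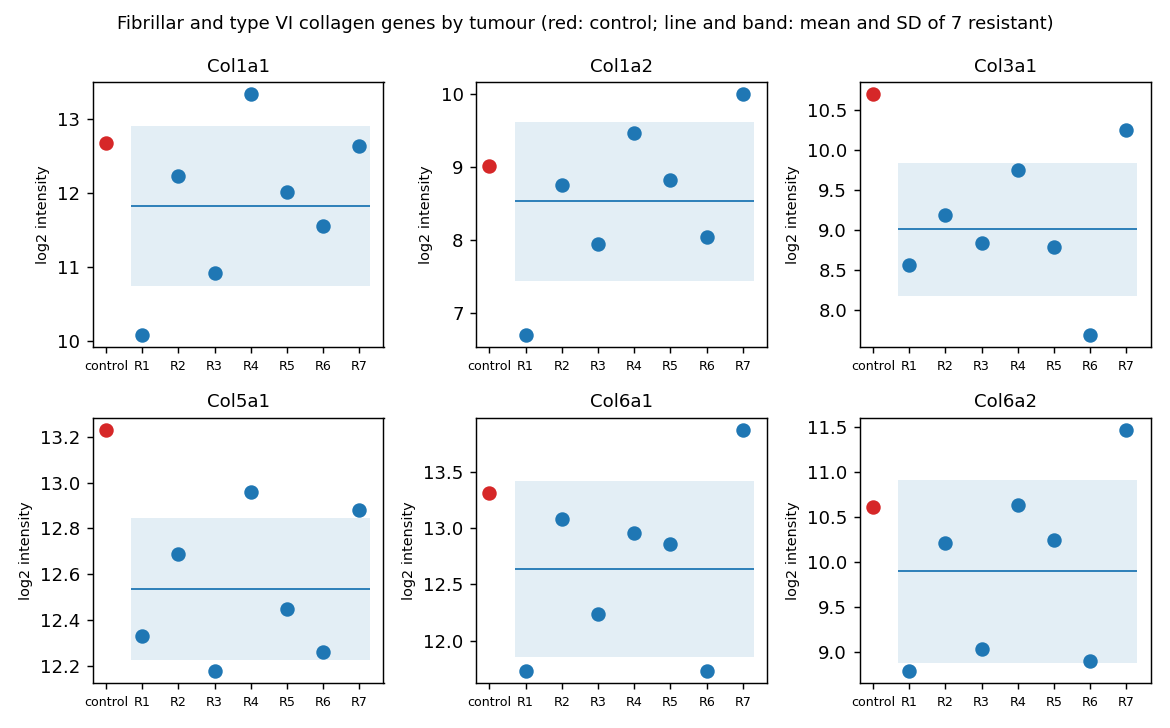
Log2 intensity (y axis) of 6 collagen genes in the control (red) and resistant tumours R1 to R7 (blue); the line and band are the mean and SD of the 7 resistant tumours. R1, R3 and R6 have the lowest Col1a1, Col1a2, Col6a1 and Col6a2, and all 7 resistant tumours lie below the control for Col3a1 and Col5a1.

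Type VI collagen forms filaments that link cells to the surrounding matrix, and its genes were low in the same tumours as type I. Col6a1 read 13.32 in the control and 11.73 to 13.88 in the resistant tumours, with a median of 12.86. Col6a2 read 10.61 in the control and 8.79 to 11.47, with a median of 10.21. For both genes tumours 1, 3 and 6 formed the low end and tumour 7 the high end. The differences were -0.68 (SE 0.73, adjusted p = 0.869) for Col6a1 and -0.71 (SE 0.94, adjusted p = 0.899) for Col6a2. Another Col6a1 probe detected on all 8 arrays differed by -0.23, and the remaining one, detected on 3 arrays, by 0.56.

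Of the 10 pairs of chains, Col6a1 and Col6a2 had the highest Pearson r, 0.974 (exact permutation p = 0.000372, adjusted 0.00372). Spearman's rho was 0.881 (exact adjusted p = 0.0241). In the ranking of all 10460 other genes by their r with Col6a1, Col6a2 was at place 2, and the reverse also held. Without tumours 1 and 6, r was 0.955 (exact adjusted p = 0.0625, n = 6). The 250 bases before each start are shown because this pair had the highest r. Both lie on the - strand of chromosome 10 in GRCm38.p6, Col6a1 at chr10:76726045-76726294 and Col6a2 at chr10:76623631-76623880, and are written in the direction of transcription with GGGCGG or its reverse in capitals.
Col6a1: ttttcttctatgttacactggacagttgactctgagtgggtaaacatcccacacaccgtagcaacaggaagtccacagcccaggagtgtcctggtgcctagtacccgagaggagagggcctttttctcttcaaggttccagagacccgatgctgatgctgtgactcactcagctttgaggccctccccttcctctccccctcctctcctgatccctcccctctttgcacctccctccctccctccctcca
Col6a2: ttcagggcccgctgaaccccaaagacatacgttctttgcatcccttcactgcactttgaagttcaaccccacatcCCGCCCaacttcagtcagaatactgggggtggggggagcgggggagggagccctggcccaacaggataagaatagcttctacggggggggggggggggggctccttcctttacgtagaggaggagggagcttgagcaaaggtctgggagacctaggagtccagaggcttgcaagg
The Col6a2 window holds 1 such match, at -175, and none of the searched letters is in the Col6a1 window.

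Type IV collagen genes split into a pair expressed in every tumour and a pair expressed strongly in few. Col4a1 read 12 in the control and 11.65 to 12.94 in the resistant tumours, with a median of 12.35. The difference was 0.23 (SE 0.45, adjusted p = 0.929), and it was -0.08 under median scaling. Col4a2, its partner in the common basement membrane trimer, read 11.06 in the control and 11.17 to 13.03 in the resistant tumours, with a median of 12.64. All 7 were above the control, tumour 6 only slightly, with a difference of 1.21 (SE 0.66, adjusted p = 0.687).

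Col4a1 and Col4a2 had a Pearson r of 0.88 over the 8 tumours (exact permutation p = 0.00399, adjusted 0.0133) and a rho of 0.881 (exact adjusted p = 0.0241). Among the 10460 other genes ranked by their r with Col4a1, Col4a2 was only at place 82. By r with Col4a2, Col4a1 was at place 90. Without the control the r of this pair was 0.947 (exact adjusted p = 0.00794, n = 7), and without tumour 7 it was 0.868 (exact adjusted p = 0.0593, n = 7). Without tumours 1 and 7 it was 0.916 (exact adjusted p = 0.0556, n = 6). Relative to Col4a1, Col4a2 was higher than in the control in all 7 resistant tumours, from 0.39 in tumour 6 to 1.29 in tumour 2, with a median of 1.03. This comparison was chosen after the values were seen and was not tested. The genes are neighbours read in opposite directions, and in RefSeq's GRCm38.p6 table the first 22 bases of their transcripts overlap.

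**Figure D4:**
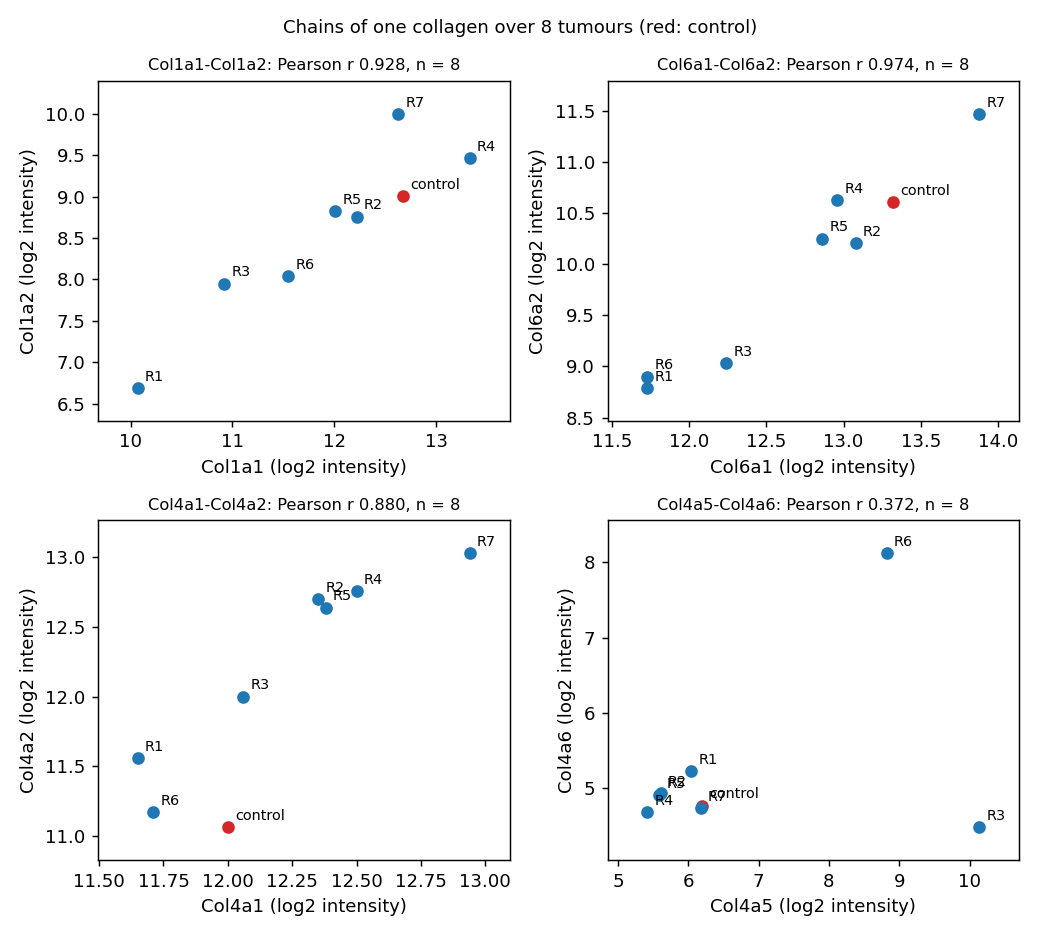
Log2 intensity of 2 chains against each other in 8 tumours (red, control; blue, R1 to R7) for Col1a1-Col1a2 (Pearson r 0.928), Col6a1-Col6a2 (0.974), Col4a1-Col4a2 (0.88) and Col4a5-Col4a6 (0.372). In the last panel R6 is high for both genes and R3 for Col4a5 alone.

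Col4a5 and Col4a6 encode chains of a basement membrane network found in skin, smooth muscle and kidney. Col4a5 read 6.2 in the control, 10.14 in resistant tumour 3 and 8.82 in tumour 6. In the other 5 it read 5.42 to 6.18, all below the control. Tumour 3 was 15.3-fold and tumour 6 6.12-fold above the control, 1 array against 1 array. Set against the other 7 tumours, tumour 3 differed by 3.87 (SE 1.07, limma adjusted p = 0.861). Without tumour 6, the only other tumour with a high level, the difference was 4.32 (SE 0.36). Leaving it out narrows the spread of the remaining tumours, so that fit adds no support.

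Col4a6 was detected only in tumours 1 and 6, at 5.23 and 8.12. Tumour 6 was called higher than the other 7 (limma adjusted p = 0.000228), also under each of 14 alternatives (adjusted p 5.64e-05 to 0.00116). Since 6 of the other 7 values were undetected, the size of that difference cannot be read, and the p sets 1 array mostly against background. Another Col4a6 probe was detected only in tumour 6, at 7.12, and the remaining one on no array. Against the control alone Col4a6 was at least 7.26-fold higher in tumour 6. Col4a5 and Col4a6 are also neighbours read in opposite directions, with 1342 bases between the starts in RefSeq's table, but their r was 0.372 (exact adjusted p = 0.31) and turned to -0.617 without tumour 6. In tumour 3, where Col4a5 was highest, Col4a6 was not detected. The 250 bases before the Col4a6 start, chrX:141474077-141474326 on the - strand of GRCm38.p6, are shown since the gene was called in tumour 6, with the reverse of GGGCGG, at -21, in capitals.
Col4a6: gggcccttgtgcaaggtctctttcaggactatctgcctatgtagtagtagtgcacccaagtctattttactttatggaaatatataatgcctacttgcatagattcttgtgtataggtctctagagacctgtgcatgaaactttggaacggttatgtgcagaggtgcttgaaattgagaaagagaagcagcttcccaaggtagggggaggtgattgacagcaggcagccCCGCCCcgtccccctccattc

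Tumour 6 was also the only tumour with Col28a1, a rarely expressed collagen known from peripheral nerve in mice. It read 10.09 there and 4.58 to 4.76 in the other 7 tumours, all undetected. The level in tumour 6 exceeded the others at least 28.3-fold (limma adjusted p = 1.63e-06, and 1.32e-07 to 1.99e-05 under 14 alternatives). Col28a1 is a member only through this array, and the p sets 1 array against background values. Col28a1 and Col4a6 were the 2 members of 29 called in tumour 6, against 5.29% of all genes called there. That share is near the background, so the family as a whole did not stand out among the genes of tumour 6. The window before the Col28a1 start, chr6:8192618-8192867 on the - strand of GRCm38.p6, is shown for the same reason as that of Col4a6, and none of the searched letters is in it.
Col28a1: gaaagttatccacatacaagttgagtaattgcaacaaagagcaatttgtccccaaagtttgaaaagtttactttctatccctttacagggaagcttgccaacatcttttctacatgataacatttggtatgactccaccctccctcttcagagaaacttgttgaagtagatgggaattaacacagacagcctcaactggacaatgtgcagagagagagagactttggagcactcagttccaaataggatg

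Some markers of other tissues were also high in tumour 6 and others were not, and their part in these differences was not tested. Among osteoblast markers, 6 of 7 with a probe were measured, with a summed intensity of 1883 in tumour 6, 249 to 417 in the other resistant tumours and 491 in the control. Most of it was Bglap, which read 10.65 in tumour 6, while the defining factor Sp7 was detected on no array. Alpl and Dmp1 were highest of the resistant tumours in tumour 6, at 6.28 and 6.43. Phex, undetected there, and Mepe were lowest, at 4.96 and 5.27. Ibsp, a bone matrix protein gene on that list, was detected only in the control and tumour 6 and read 8.04 and 5.33 there. It was the 1 osteoblast marker called lower (limma adjusted p = 0.00825), a p that sets the control array against resistant values of which 6 were undetected. Among cartilage markers the sum was 1739 in tumour 6, carried by Matn4, against 219 to 470 in the others and 723 in the control. The other measured cartilage marker, Sox9, read 8.06 in tumour 6, below its resistant median of 8.22. Schwann cell markers had 2 measured members of 4 with a probe, with a sum of 1874 in tumour 6 and 782 to 1697 in the other resistant tumours. Most of it was Pmp22, which read 10.82 in tumour 6. Mbp read 6.15 there, near the low end of its resistant range of 6.10 to 7.01. S100b and Foxd3 were detected on no array.

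Col26a1, a small secreted collagen, was present in the control (7.55) and tumour 6 (7.79) and undetected in the rest. The control was between 4.55-fold and 5.11-fold, at the least, above each of the other 6. The mean difference of -2.59 (SE 1.15) did not pass (adjusted p = 0.607) and was -1.62 without background correction. Without tumour 6 it passed (adjusted p = 0.00183), when the resistant values left were all undetected, so that this p reflects a single control array above the background.

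Col23a1 encodes a transmembrane collagen and had the smallest p of the family. It read 9.20 in the control and 5.15 to 7.68 in the resistant tumours, with a median of 6.45, undetected in tumour 2. All 7 lay below the control, tumour 1 least so, at 7.68. The difference was -2.94 (SE 0.77, unadjusted p = 0.00464, adjusted p = 0.328), and the adjusted p ran from 0.0727 without tumour 1 to 0.505 without tumour 2. Against tumour 2 the control was at least 14.8-fold higher. The other transmembrane members were close to the detection limit. Col17a1, a hemidesmosome collagen of keratinocytes, was detected in the control at 5.52 and in tumour 4 at 6.34, and its 3 detected probes differed in sign, from -0.44 to 0.11. Of 9 keratinocyte markers, 7 were detected on no array, Krt5 and Krt14 among them. Col25a1 was detected on 3 arrays and read at most 5.61.

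Col7a1 forms the fibrils that anchor the epidermis to the dermis, and it had one of the widest ranges. It read 10.55 in the control and 6.10 to 10.33 in the resistant tumours, with a median of 8.20. Tumours 2, 4 and 7 read 9.64, 10.33 and 10.07, and the other 4 read 8.20 or less, with tumour 3 the lowest. All 7 were below the control, with a difference of -2.11 (SE 1.47, adjusted p = 0.769). Its other probe was detected only in tumour 4, at 5.76.

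**Figure D5:**
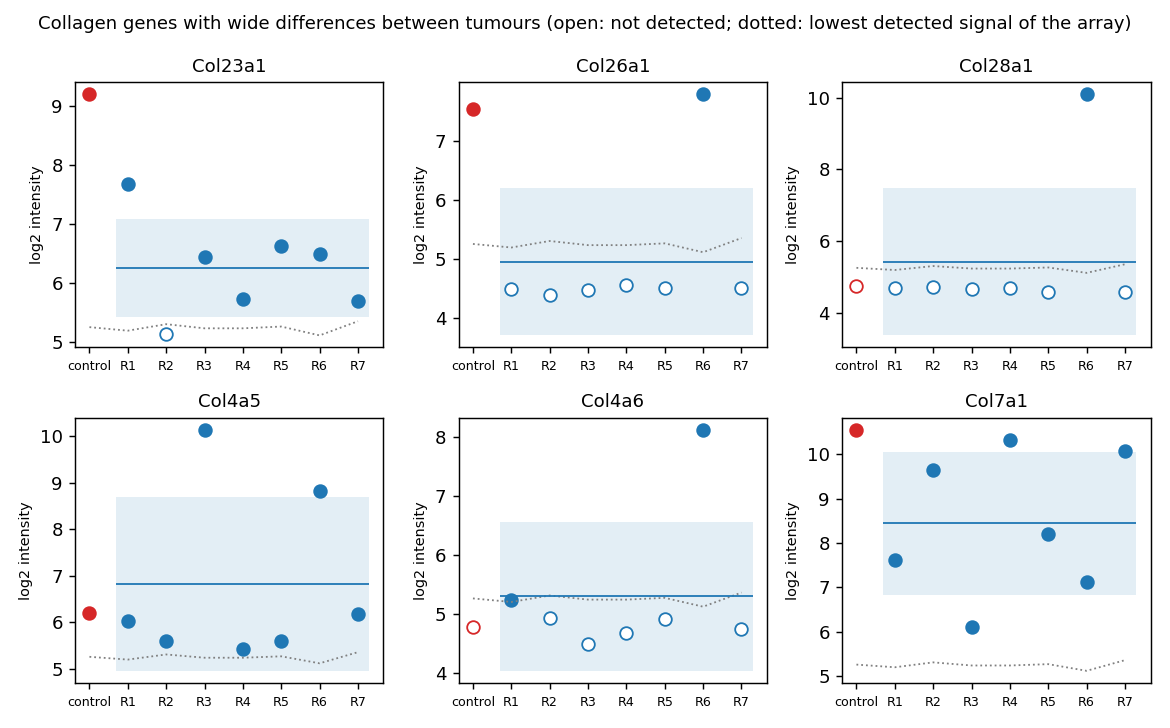
Log2 intensity (y axis) of 6 collagen genes in the control (red) and resistant tumours R1 to R7 (blue); open circles were not detected, the dotted line is the lowest detected signal of each array, and the line and band are the mean and SD of the 7 resistant tumours. Col28a1 and Col4a6 stand out in R6, Col4a5 in R3 and R6, Col26a1 in the control and R6 and Col23a1 in the control, and Col7a1 is spread between 6.10 and 10.55.

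The multiplexin collagens of vessel basement membranes, Col15a1 and Col18a1, were spread widely around the control. Col15a1 read 8.36 in the control and was highest in tumours 6 and 1, at 9.90 and 9.43, and lowest in tumour 5 at 6.93. Its difference was -0.14 (SE 1.01, adjusted p = 0.985). Col18a1, the source of endostatin, read 13.01 in the control and 11.42 to 13.99 in the resistant tumours, with a median of 13.53. Tumours 1, 6 and 3 were below the control and the other 4 above it. Its difference was -0.01 (SE 0.84, adjusted p = 0.998) on the probe used and 0.49 on another probe detected in every tumour. Endothelial markers, 9 measured of 9 with a probe, had a summed intensity of 8922 in the control and 4515 to 8265 in the resistant tumours. Most of the control sum was Esam, at 12.40 against 10.16 to 11.58, and single markers went both ways. Esam and Vwf lay below the control in all 7 resistant tumours, and Kdr, undetected in the control, above it in all 7. Pecam1 lay above the control in 6 of 7, Tek and Egfl7 in 5, Emcn in 4, Tie1 in 3 and Cdh5 in 1.

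FACIT collagens differed little. Col16a1 read 12.02 in the control and 11.88 to 12.76 in the resistant tumours, with a median of 12.50 and 6 of 7 above the control. The difference was 0.41 (SE 0.32, adjusted p = 0.795), and 0.11 under median scaling. Col14a1 was undetected in the control and highest in tumour 6, at least 2.73-fold above it. Set against the other 7 tumours, Col14a1 in tumour 6 differed by 1.16 (SE 0.30, adjusted p = 0.0672). Col9a1 and Col9a2 were detected on 5 and 2 arrays and read at most 5.56 and 5.53. Col9a1 was above the control in all 7 tumours by 0.36 on average (SE 0.24, adjusted p = 0.747), with 5 arrays above the detection limit.

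The resistant tumours differed more from each other in collagen genes than in the typical gene. Among the 16 members detected on all arrays the median SD over the 7 resistant tumours was 0.86, from 0.29 for Col16a1 to 1.87 for Col4a5. Over all 7297 genes detected on all arrays it was 0.35, from 0.03 to 3.17. Wide spread was not particular to collagen genes. Among the 9 measured proteoglycans that bind fibrils, detected on all arrays or fewer, the SD ran from 0.46 for Podn to 2.61 for Ogn. Among the 13 measured folding and modifying enzymes it ran from 0.20 for Plod3 to 0.95 for P3h3. These are descriptions with no test.

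Counted tumour by tumour against the control, the low collagen levels lay mostly in tumours 1, 3 and 6. In tumour 1, 12 of 29 members were at least 2-fold lower, where 5.28% of all genes were. Tumours 3 and 6 each had 9, where the share of all genes was 9.31% and 13.2%. Tumour 5 had 6 (9% of all genes), tumour 2 had 3 (8.10%), and tumours 4 and 7 had 2 each (8.68% and 6.51%). At least 2-fold higher there was 1 member in each tumour except tumour 6, which had 5, where 11.6% of all genes were. The shares of all genes in tumours 1 to 5 and 7 were 5.13%, 6.14%, 7.70%, 6.68%, 6.59% and 5.02%. Under the other scalings the count of lower members was 9 to 13 in tumour 1, 8 to 10 in tumour 3 and 6 to 11 in tumour 6. It was 3 to 6 in tumour 2 and 5 to 9 in tumour 5. The share of all genes moved as well, with the high ends of both under median scaling. It was 2.78% to 8.98% in tumour 1, 5.75% to 15.4% in tumour 3 and 8.44% to 17.9% in tumour 6. In tumours 2 and 5 it was 4.46% to 12.1% and 5.22% to 15.3%. Each count compares 1 array with the same control array and has no replicate check.

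The median difference over the 7 fibrillar genes detected on all arrays was lowest in tumour 1 at -1.42, followed by tumour 6 at -1.12 and tumour 3 at -1.05. Tumours 5, 2 and 7 gave -0.77, -0.68 and -0.34, and tumour 4 gave 0.24. Without background correction, and with the deposited values, it was -0.89 in tumour 1, -0.95 in tumour 6 and -0.91 in tumour 3, so these 3 tumours have no settled order. The sign was the same in each tumour without background correction, under median scaling and with the deposited normalized values. Over all genes the medians lay between -0.06 and 0.01. In the test of each tumour against the other 7, no collagen gene passed in any tumour but tumour 6. Over all genes 0.449% passed in tumour 1, 0.00% in tumours 2 and 7, 0.0382% in tumour 3, 0.0574% in tumour 4, 0.0669% in tumour 5 and 0.220% in the control. At an unadjusted p under 0.05 there were 4 members of 29 in tumour 1 (6.18% of all genes), 2 in tumour 3 (3.17%) and 2 in tumour 4 (2.27%). Tumour 6 had 6 (19.9%), tumour 7 had 1 (3.80%) and the control had 1 (8.21%). Tumours 2 and 5 had 0 (0.660% and 2.63%). In tumour 1 these included Col1a2 (-2.17, SE 0.69, adjusted p = 0.422), Col1a1 (-2.12, SE 0.74, adjusted p = 0.531) and Col18a1 (-1.80, SE 0.56, adjusted p = 0.415).

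Markers of other cell types also differed between the tumours, and their part in the collagen levels was not tested. Tumour 1 had the highest sum of skeletal muscle markers, 46962, against 431 to 11080 in the other resistant tumours and 621 in the control, with 12 markers measured of 13 with a probe. In tumour 3 that sum was 828, close to the control. Fibroblast markers, 10 measured of 12 with a probe, had a sum of 30386 in the control and 10769 to 14527 in the resistant tumours. Among the latter the sum was highest in tumour 1, and it was 10832 in tumour 2. The single markers ranked tumour 1 differently. Thy1, Pi16 and Fbln1 lay above their resistant medians there, Fbln2 at it, and Pdgfra, Pdgfrb, Fap, Dpt, Mfap5 and S100a4 below. Postn and Tcf21 were detected on no array, and 0 of the 10 passed limma's test, with Thy1 and Fbln2 at an unadjusted p under 0.05. Every resistant tumour had less Thy1, Fbln1 and Fbln2 signal than the control. Fap, Dpt, Pi16, Mfap5 and S100a4 were above the control in 6 of 7, by 1.17, 1.49, 1.12, 1.11 and 0.51 on average. Pdgfra read 9.79 in tumour 6 and at least 12.28 elsewhere. Smooth muscle and pericyte markers, 9 measured of 10 with a probe, had a sum of 20298 in tumour 2 and 19074 in tumour 7. The sum was 1702 to 6723 in the other resistant tumours and 4131 in the control. In tumours 2 and 7 most of it was Acta2, at 14.21 and 14.14 against 11.51 in the control. Rgs5, Notch3 and Abcc9 lay below the control in all 7 resistant tumours, and Cspg4 above it in 5 of 7.

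Genes that make, process and bind collagen were described from lists drawn up for this work. In all 5 lists, 1 gene passed limma's test, and it was also the only one at an unadjusted p under 0.05. Over all genes, 0.00956% were called higher and 0.210% lower by limma, and 8.21% had an unadjusted p under 0.05. Of 13 measured enzymes and chaperones that fold and modify the chains, 0 passed. For 3 of them every resistant tumour lay under the control, and for 1 every one lay over it, near the 17% and 13.3% of all genes. The 3 with the smallest p were the lysyl hydroxylase gene Plod3 (12.73 in the control, 12.32 ± 0.20, SD, n = 7, limma adjusted p = 0.729), P4hb (14.11 and 13.70 ± 0.24, adjusted p = 0.76) and Colgalt1 (11.26 and 10.84 ± 0.26, adjusted p = 0.765). These 3 genes are the ones with all 7 tumours below the control, at narrow spread.

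In procollagen processing and cross-linking 0 of 6 measured genes passed. Pcolce2, an enhancer of propeptide removal, read 8.40 in the control and 5.13 to 8 in the resistant tumours, with a median of 6.57 (adjusted p = 0.693). Bmp1, the protease it enhances, read 12.47 in the control, 12.96 in tumour 6 and 11.13 to 11.80 in the other resistant tumours. Pcolce read 11.13 and 11.81 ± 0.52 (SD, n = 7, limma adjusted p = 0.782).

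Of 9 measured proteoglycans that bind fibrils, 0 passed, and members went different ways. Prelp, which links basement membrane to fibrils, read 5.77 in the control and 7.50 to 13.11 in the resistant tumours, with a median of 9.60 and the highest value in tumour 6 (adjusted p = 0.622). Bgn, or biglycan, read 14.24 in the control and 12.17 to 14.15, with a median of 12.89 (adjusted p = 0.643). Ogn, or osteoglycin, read 6.97 in the control, 12.47, 11.73 and 11.11 in tumours 4, 2 and 7, and 6.18 to 8.90 in the other 4 (adjusted p = 0.865).

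Of 8 measured collagen receptors 1 was called lower, and the median difference was -0.85. For 3 of them (Itga2, Itgb1 and Ddr2) every resistant tumour lay under the control, where 17% of all genes did so. For 2 (Lair1 and Mrc2) every one lay over it, where 13.3% of all genes did so. Itga2, the alpha2 integrin chain of a receptor for type I collagen, had a level of 6.43 in the control, and no resistant tumour had a detected value. It was at least 2.26-fold lower in them (limma adjusted p = 0.0293, and 0.0122 to 0.126 under the alternatives), a p that reflects a single control array above the background. Itgb1, its beta chain, read 9.59 in the control and 8.71 ± 0.39 (SD, n = 7, limma adjusted p = 0.619), below the control in 7 of 7. Mrc2, an endocytic receptor for collagen, was undetected in the control and in tumour 1 and read 5.62 to 5.98 in the other 6 (adjusted p = 0.619). Of 9 basement membrane partners of type IV collagen 0 passed. The laminin chain gene Lamb1 read 7.22 in the control and 6.49 ± 0.32 (SD, n = 7, limma adjusted p = 0.622), below the control in all 7. Agrn and Lama4 read 12.08 ± 0.39 and 5.28 ± 0.35 (SD, n = 7) in the resistant tumours, against 11.76 and 5.09 in the control.

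The remaining pairs of chains did not pass in the correlation over 8 tumours. Col11a1 and Col11a2 had a Pearson r of 0.715 (exact adjusted p = 0.088), Col2a1 and Col11a1 one of 0.463 (exact adjusted p = 0.306) and Col9a1 and Col9a2 one of 0.191 (exact adjusted p = 0.645). Most of the values behind these lay under the detection limit. In all, 3 of 10 pairs passed by Pearson and 5 by Spearman. The tumours share the array normalization, which the coefficients do not separate from the genes' own levels.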

How the data were processed

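Total RNA of 8 tumours was labelled with biotin and read on bead arrays, per the labels' protocols. The authors deposited linear probe intensity, each with its detection p-value, neither background-corrected nor normalized, and a second table of normalized intensity whose method is not stated per the file headers. GenomeStudio is named in the submitters' processing notes. Of 25697 probes, 23978 carry 1 gene symbol from the platform's annotation, 0 carry several and 1719 carry none, and symbols were updated by gene ID through RefSeq's table for GRCm38.p6.

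From the deposited intensity, limma's neqc method (normal plus exponential background inferred from the detection p-values, offset 16, quantile normalization) gave log2 values. Probes were kept where any array gave a detection p under 0.05, and each of 10461 genes took its probe of highest mean. A group or tumour where a gene was not detected has only a bound, set by the lowest detected signal of each array, and such folds are given as "at least". Groups came from the sample titles. All genes were fitted with limma (lmFit, eBayes, Benjamini-Hochberg over all genes, two-sided, adjusted p under 0.05): 7 resistant tumours against 1 control, and each tumour against the other 7. Correlations used exact permutation, adjusted over 10 pairs of chains. On simulated data for resistant against control with 10461 genes, the recovery was 20.6% at a 2-fold, 65.7% at a 4-fold and 91.1% at a 16-fold change, and 4.88% of calls were false. Recovery was not tested for the collagen genes alone. Among genes detected on all arrays, their median SD over the resistant tumours was 0.86, against 0.35 for all genes. R 4.3.3 and limma 3.58.1 were used.

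The collagen members and the partner and marker lists were chosen with earlier results of these data known. Named members were Col1a1, Col1a2, Col3a1, Col4a1, Col4a2, Col6a1 and Col6a2, any that passed, the 2 with the smallest p per class, the 8 most variable and those with probes of opposite sign (19 of 29), and the 3 partners per list with the smallest p. Other members appear with their range. Of 59 collagen probes, 7 members had more than 1 detected probe, and in 4 these differed in sign (Col3a1, Col6a1, Col17a1 and Col18a1). Table columns name no chip or position, so no batch was tested. Macrophage and adipocyte markers were summed too: macrophage markers, 8 measured of 8 with a probe, gave 9540 in the control and 14425 to 23861 in the resistant tumours, and adipocyte markers, 5 of 7, 544 and 203 to 3003. Keratinocyte markers, 2 of 9, gave 417 and 284 to 810, and melanocyte markers, 2 of 9, 70 and 69 to 92.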

Additional observations from a re-analysis of the deposited data

Results flagged for a closer look

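Of 34 named genes examined for 1 tumour far from the other 6 resistant tumours, 7 had one, where chance gives about 1 in 20. These genes were chosen partly for their wide spread or small p, so a surplus over chance was built in, and 13.1% of all 10461 genes had such a tumour. Tumour 6 was the highest in 5 of these: Col28a1 at 10.09 against 4.58 to 4.72, Col26a1 at 7.79 against 4.39 to 4.56, Col4a6 at 8.12 against 4.48 to 5.23, Bmp1 at 12.96 against 11.13 to 11.80 and Prelp at 13.11 against 7.50 to 9.75. For Col26a1 and Col28a1 the other 6 values were all undetected, so the narrow spread among them is that of background. Col17a1 was highest in tumour 4, at 6.34 against 4.65 to 5.19 on the probe used. Its other probes were also highest there, at 5.77 and 5.56, with next values of 5.46 and 5.42. The 3 probes differ in sign in the comparison with the control. Mrc2 was lowest in tumour 1, at 5.04 against 5.62 to 5.98.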

How the results depend on the processing

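The count of collagen genes called in resistant tumours against the control stayed at 0 under all 7 changes of method. It was 0 or 1 with a tumour left out, the 1 being Col26a1 without tumour 6, which is also the 1 collagen gene of the control against the other tumours in that case. Without tumour 6, tumour 3 likewise had 1 in place of 0, Col4a5, and over all tumours left out this count was 0 to 1. The count of partner genes, 1 (Itga2), was 0 without background correction and 0 with the deposited normalized values, and 0 to 1 with a tumour left out (0 without tumour 2, 3, 4, 5 or 7). The deposited values and those without background correction gave nearly the same numbers, such as -0.84 for Col1a1 in both. They are therefore not separate checks. Of named differences, the sign turned for Col17a1 without background correction and with the deposited values (0.05 for both), for Col18a1 when probes were averaged per gene (0.24) and for Col4a1 under median scaling (-0.08), which shifted the median of all genes to -0.20. With 1 tumour left out, the lowest and highest values were -0.42 and 0.08 for Col15a1, -0.45 and 0.04 for Col17a1 and -0.18 and 0.25 for Col18a1. None of these had passed.

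Without the 2 tumours farthest from the median, the pairs Col1a1-Col1a2 (0.856), Col4a1-Col4a2 (0.916) and Col6a1-Col6a2 (0.955) did not pass and Col5a1-Col5a2 (0.923) did. With 1 tumour left out, r ran from 0.847 to 0.972 for Col1a1-Col1a2, from 0.846 to 0.947 for Col4a1-Col4a2, from 0.661 to 0.86 for Col5a1-Col5a2, from 0.679 to 0.869 for Col11a1-Col11a2, from -0.617 to 0.959 for Col4a5-Col4a6 and from -0.197 to 0.469 for Col9a1-Col9a2. The cause of these changes was not tested beyond the fewer tumours used. No paired analysis was possible because there was 1 control and the labels link no resistant tumour to it. A detection p under 0.01 kept 23 of the 29 members. Near the detection limit, sizes cannot be read.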
